A study of Sus scrofa with 10 samples.

Results

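AVP and OXT, the genes of the vasopressin and oxytocin precursors, were compared in the hypothalamus of pigs that differ in growth and fatness. They are the rows of the table of gene levels that carry these names, 2 of 25009 rows, with 1 row for each gene. The samples came from 10 Iberian x Landrace backcross pigs, 5 labelled as high and 5 as low in growth and fatness, called high and low pigs here. No treatment, sex or age is named in the labels used here. Levels are FPKM, fragment counts made comparable across transcript lengths and library sizes, and the authors gave 1 value for each gene in each set of 5 pigs, together with confidence bounds. Values of single animals were not analysed here, so no test across animals was made and the spread between pigs is unknown. The depth of each library is unknown too.

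Vasopressin and oxytocin are short peptides made by large magnocellular neurons of the paraventricular and supraoptic nuclei, carried down their axons and released into blood from the posterior pituitary. Vasopressin retains water in the kidney and constricts vessels, and smaller neurons of the paraventricular nucleus release it toward the anterior pituitary, where it acts with corticotropin-releasing hormone on the stress axis. In domestic pigs the hormone carries lysine where most mammals have arginine. Oxytocin drives milk ejection and uterine contraction, and within the brain both peptides act on social behaviour and oxytocin restrains food intake. Each peptide is cut from a precursor that also holds a neurophysin, its carrier protein. The neurophysin parts of the precursors are much alike in mammals, and the sources used here do not say how fragments matching both genes were assigned, so the level of either gene is uncertain to that extent.

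Both genes were at a higher level in the pigs of high growth and fatness, with bounds that overlapped widely. AVP was at 472 FPKM (bounds 219 to 725) in high pigs and at 354 FPKM (154 to 555) in low pigs. OXT was at 55.5 FPKM (24.8 to 86.1) in high pigs and at 34.7 FPKM (11.8 to 57.5) in low pigs. For each gene, the value of either group lay inside the bounds of the other.

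**Figure D1:**
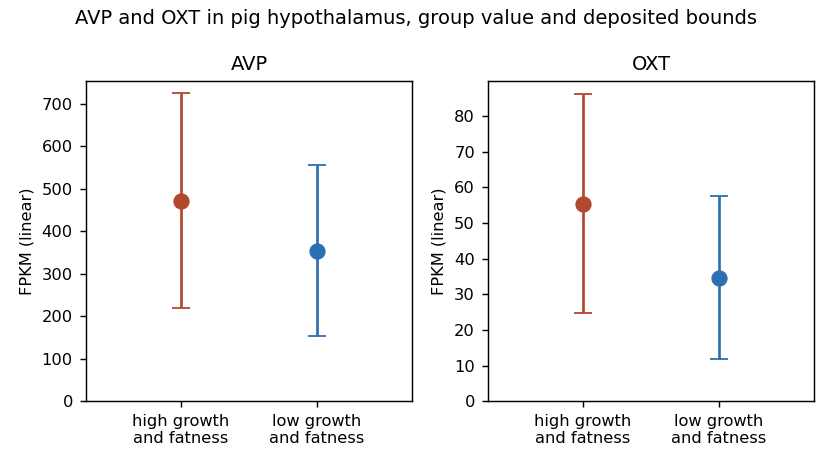
FPKM of AVP (left) and OXT (right) on linear axes from 0, with points for the group values and bars for the bounds the authors deposited, each point standing for 5 pigs. The point of the high pigs is the upper one for both genes, and the bars share the range from 219 to 555 FPKM for AVP and from 24.8 to 57.5 FPKM for OXT.

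The ratio of high to low pigs was 1.33 for AVP and 1.60 for OXT. Taking the extremes of the bounds, these ratios could run from 0.395 to 4.72 for AVP and from 0.432 to 7.28 for OXT, so a lower level in high pigs is within the bounds for both. On the log2(FPKM + 1) scale, which compresses low values, the difference (high minus low) was 0.41 for AVP and 0.66 for OXT. After quantile normalization, which gives both groups the same distribution of values, the AVP difference was 0.74, and its bounds still overlapped.

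The bounds of neither member separated the groups (0 of 2), and neither reached a ratio of at least 2 (0 of 2). Among the 15281 rows that averaged 1 FPKM or more over both groups, called tested rows here, bounds did not overlap in 0.458%, and 3.76% had a ratio of at least 2 in either direction. In the direction of the members, higher in high pigs, these shares were 0.0262% and 1.32%, against 0.432% and 2.44% in the other direction. With 2 genes against such shares, finding no call says little about either gene.

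On the deposited values the direction was not that of most genes. Of the tested rows, 32.3% were higher in high pigs, and the median log2 difference was -0.10. That share depends on scaling, being 50.1% under median-of-ratios scaling (1 factor per group) and 49.3% after quantile normalization. Both methods are built to level the groups, so a near-even share follows from them and is no separate result. The difference was larger than that of AVP in 548 tested rows (3.59%) and larger than that of OXT in 225 (1.47%). Well expressed genes leaned further toward low pigs. Quantile normalization removed this lean, as follows from giving both groups the same distribution of values. Among 260 other rows whose mean level lay within 2-fold of the AVP mean, 28 were higher in high pigs, and the median difference was -0.31. None of the 202 rows with a gene name among them had a larger difference than AVP, while 6 unnamed rows did. Around the OXT mean, 438 of 2301 other rows were higher in high pigs, with a median of -0.18, and 33 had a larger difference than OXT. The named ones among those 33 were 14 rows, of which the protein-coding genes were SNCG, a synuclein, and WSB1, the others being small RNA genes. After quantile normalization 125 of the 260 rows around AVP and 1081 of the 2301 around OXT were higher in high pigs, while 7 and 33 had a larger difference than the member. These counts at like level were chosen after the values had been seen and describe the groups' values only.

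AVP was among the most abundant messages of the tissue. Of 24951 rows with an estimate in both groups it ranked 96th in high pigs and 189th in low pigs. It stood at 66.7 times the median tested row in high pigs and at 46.6 times that median in low pigs. OXT ranked 1119th and 2104th, at 7.84 and 4.56 times the median tested row. AVP made up 0.117% of all FPKM summed in high pigs and 0.0725% in low pigs, and OXT 0.0138% and 0.00709%. With 1 row per gene name, AVP ranked 56th in high pigs and 125th in low pigs.

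The AVP level exceeded the OXT level in both groups, and here the bounds did separate them. FPKM is scaled for transcript length, so levels of different genes can be set side by side. The AVP to OXT ratio of FPKM was 8.51 in high pigs and 10.2 in low pigs. The bounds allow 2.55 to 29.2 in high pigs and 2.67 to 46.9 in low pigs, so the ratio was above 1 throughout and the groups did not differ in it beyond their bounds.

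Set among a list of neuropeptide precursors that leaves out the granins, AVP was the highest in both groups and OXT stood in the upper part. The granin SCG2, from which a peptide is also cut, was higher than AVP at 528 and 446 FPKM in high and low pigs, with overlapping bounds. The list held 43 precursors of the hypothalamus, of which 35 had a row with an estimate and 28 were tested. In high pigs the AVP bounds lay above those of all 34 other precursors of the list. In low pigs they overlapped with 3, somatostatin (SST, 114 FPKM), proenkephalin (PENK, 164 FPKM) and proopiomelanocortin (POMC, 110 FPKM), and lay above the other 31. AVP alone made up 30.4% of the FPKM summed over the listed precursors in high pigs and 26.6% in low pigs.

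OXT was 8th of the 35 in high pigs and 11th in low pigs. In high pigs its neighbours were POMC above it (84.0 FPKM) and ADCYAP1 below it (45.4 FPKM), the precursor of the peptide PACAP. In low pigs they were NTS, the neurotensin precursor (40.0 FPKM), and NMB, the neuromedin B precursor (30.1 FPKM). The OXT bounds overlapped with those of 8 other precursors in high pigs and 15 in low pigs, so its place among them is not resolved. AVP was followed by PMCH, the precursor of melanin-concentrating hormone (167 FPKM), in high pigs, and by PENK in low pigs.

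**Figure D2:**
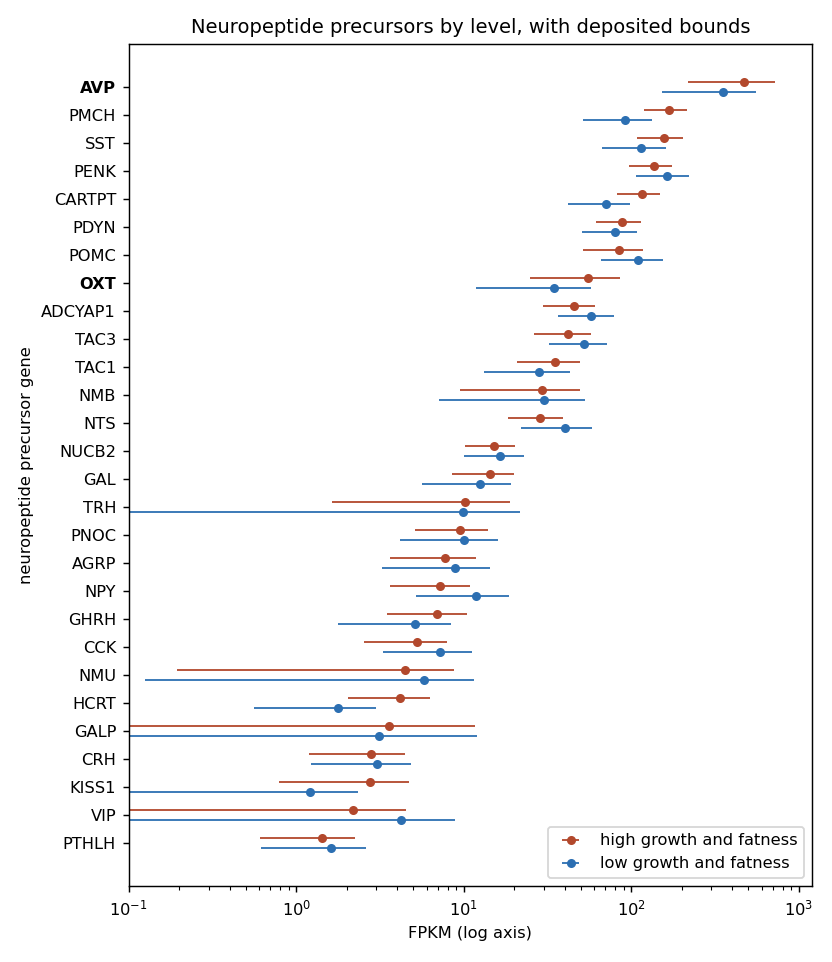
FPKM on a log axis of the 28 tested neuropeptide precursors, ordered by high pigs, with points for the group values and bars for the deposited bounds (bounds below 0.1 FPKM end at the axis). AVP is at the top at 472 and 354 FPKM, and OXT at 55.5 and 34.7 FPKM has wider bars than most precursors of its level.

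Precursors as a group were mixed in direction. Of the 28 tested, AVP and OXT included, 13 were higher in high pigs and 15 in low pigs, beside 32.3% higher in high pigs over all tested rows. Their median difference was -0.05, which turned to 0.06 under median-of-ratios scaling, 0.07 after quantile normalization and 0.04 without the filter. No precursor had bounds that separated the groups, beside 0.458% of all tested rows. The difference was larger than that of AVP in 6 precursors and larger than that of OXT in 4. Those 4 were HCRT, the orexin precursor (0.89), PMCH (0.86), KISS1, the kisspeptin precursor (0.76), and CARTPT, the precursor of the CART peptides (0.71). SST differed by 0.45. HCRT (ratio 2.33) and KISS1 (ratio 2.27) were the 2 tested precursors that reached a ratio of at least 2, with bounds that overlapped. Over all tested rows 1.32% did so in that direction. KISS1 was at a low level, 2.74 FPKM in high pigs and 1.21 FPKM in low pigs. Below the filter, NPFF (ratio 3.11) and PROK2 (ratio 2.43) also reached a ratio of at least 2, with lower bounds at 0.

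The bounds of both members were wide for their level. The interval of AVP reached to either side by 53.5% of the value in high pigs and 56.7% in low pigs, and that of OXT by 55.2% and 65.9%. This reach is called the half-width here. Tested rows within 2-fold of the AVP level had a median half-width of 30.4% in high pigs and 38.4% in low pigs, and 24.6% and 15.9% of them were wider than AVP. Around the OXT level the medians were 29.5% and 36.2%, and only 8.34% and 5.80% of rows were wider than OXT. Both genes are short, spanning 1912 bases (AVP) and 864 bases (OXT). Among rows of like level that span 2000 bases or less on the chromosome, introns included, the median half-width in high pigs was 74.6% around AVP (59 rows) and 45.2% around OXT (210 rows), and 62.7% and 42.9% of these rows were wider than the member. In low pigs 51.6% of such rows were wider than AVP and 30.4% wider than OXT. Why the intervals are this wide was not tested.

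**Figure D3:**
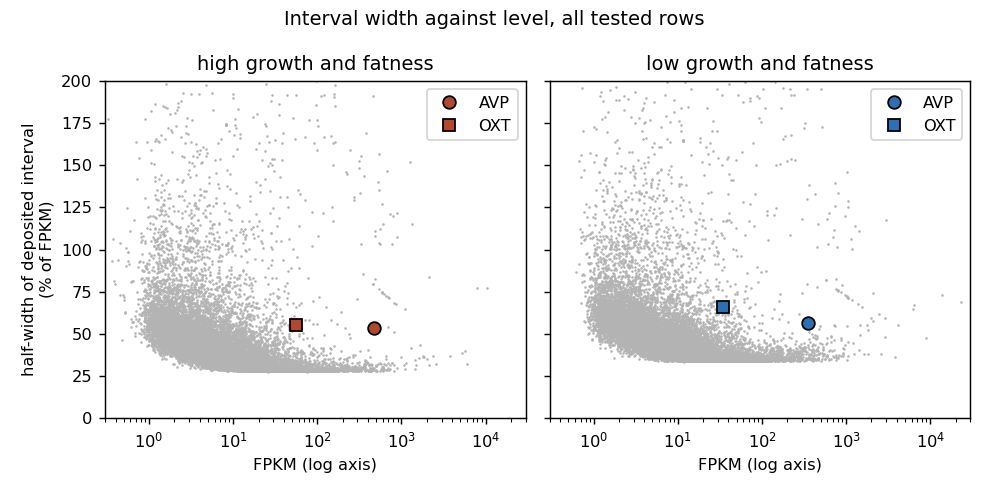
Half-width of the deposited interval as a percentage of the FPKM value against FPKM (log axis) for the tested rows in grey, in high pigs (left) and low pigs (right), with rows above 200% left off the axis. AVP and OXT lie above the dense band at their levels, at 53.5% and 55.2% in high pigs and 56.7% and 65.9% in low pigs.

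The genes with the most similar pair of values were sought by the distance in log2(FPKM + 1) over the 2 groups. Nearest to AVP were RESP18 (429 and 386 FPKM in high and low pigs), STMN2 (414 and 401 FPKM), APOE (423 and 427 FPKM) and RTN1. RESP18 encodes a protein of the secretory pathway of endocrine cells, and STMN2 marks neurons. The log2 differences of these 4, -0.01 to 0.15, were all below that of AVP. Nearest to OXT were LUC7L3 (56.3 and 37.5 FPKM), SRRP130, BAIAP3, CLK1 (50.4 and 32.2 FPKM) and NPTX2, with differences from 0.53 to 0.63. CLK1 is a kinase of splicing factors, BAIAP3 takes part in the exocytosis of dense-core vesicles, and NPTX2 is a neuronal pentraxin. With only 2 values per gene, likeness says little beyond a like level.

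The receptors of the peptides were barely detected in the same tissue, and none of the 4 reached a mean of 1 FPKM. OXTR, the oxytocin receptor, was at 0.401 FPKM (0.115 to 0.686) in high pigs and 0.551 FPKM (0.154 to 0.948) in low pigs. AVPR1A, the main vasopressin receptor of brain and vessels, was at 0.105 and 0.0568 FPKM, with lower bounds at 0. It has 2 rows of identical values on chromosome 5, so its fragments may be split between them. AVPR1B, which mediates the action on pituitary corticotrophs, was at 0.0437 and 0.0533 FPKM. AVPR2, the kidney receptor that retains water, was at 0.00398 FPKM in high pigs and listed at 0 in low pigs. No direction can be read from these levels.

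Transcription factors that specify the magnocellular and parvocellular neurons differed little. ARNT2, the partner of SIM1, was at 30.9 FPKM in high pigs and 26.6 FPKM in low pigs. OTP, a homeobox factor needed for both cell types in mouse, was at 2.53 and 2.24 FPKM, and POU3F2, which acts after SIM1 in mouse, at 3.59 and 3.88 FPKM. SIM1 itself was below the filter at 0.420 and 0.507 FPKM. Of the 8 listed factors 3 were tested, 2 of them higher in high pigs, with a median difference of 0.12. Over all 7 with an estimate, without the filter, the median was -0.09.

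Genes that turn the precursors into peptides and fill the granules were mixed in direction. Of 11 tested members, 6 were higher in high pigs and 5 in low pigs. The median difference was 0.01 (0.13 under median-of-ratios scaling and 0.20 after quantile normalization). None had bounds that separated the groups or a ratio of at least 2, beside 0.458% and 3.76% of all tested rows. PCSK2, a convertase that cuts prohormones, was at 38.5 FPKM in high pigs and 37.7 FPKM in low pigs. CPE, which trims the cut ends, was at 648 and 661 FPKM, and PAM, which adds the amide that both peptides carry, at 143 and 145 FPKM. The granule protein SCG2 was at 528 and 446 FPKM, CHGB at 133 and 156 FPKM, and VGF at 88.8 and 70.4 FPKM. PCSK1N, an inhibitor of the convertase PCSK1, had the largest difference of the list, 0.39 (19.2 and 14.5 FPKM).

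Genes tied to osmotic control of vasopressin were split evenly. Of 12 tested members 6 were higher in each group, and the median difference was -0.07, or 0.03 under median-of-ratios scaling. CREB3L1, an activator of vasopressin transcription in the rat, was at 2.76 FPKM (1.59 to 3.93) in high pigs and 3.47 FPKM (1.82 to 5.11) in low pigs. CAPRIN2, which binds vasopressin mRNA in the rat, was at 19.3 and 16.4 FPKM. The tonicity-responsive factor NFAT5 was at 5.49 and 4.67 FPKM. SLC12A2, a chloride importer that sets the response of vasopressin neurons to GABA, was at 12.6 FPKM (8.81 to 16.3) and 18.8 FPKM (12.1 to 25.4), the lowest difference of the list at -0.54. AQP4, the water channel of astrocytes, was at 315 and 398 FPKM. The channels TRPV1 and TRPV4 were below the filter, at 0.0634 and 0.0529 FPKM in high pigs and 0.0611 and 0.110 FPKM in low pigs.

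Release and breakdown genes, 9 tested, were higher in high pigs for 4 and in low pigs for 5, with a median of -0.08 that turned to 0.02 under median-of-ratios scaling. CD38, needed for oxytocin release in mouse, was at 37.1 FPKM in high pigs and 33.0 FPKM in low pigs. The calcium channel CACNA1A differed by 0.62 (14.1 and 8.84 FPKM) and has 2 rows, so its value is uncertain. PREP and THOP1, peptidases that cut small peptides, were at 11.1 against 12.3 FPKM and 9.61 against 10.3 FPKM.

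Peptides and enzymes that magnocellular or paraventricular neurons carry beside vasopressin or oxytocin were also mixed, 5 of 9 higher in high pigs, with a median of 0.04 (0.15 under either scaling). PDYN, the dynorphin precursor found in vasopressin neurons, was at 88.1 FPKM (61.9 to 114) in high pigs and 79.4 FPKM (50.9 to 108) in low pigs. GAL, the galanin precursor, was at 14.3 and 12.4 FPKM. CCK, found in oxytocin neurons of the rat, was at 5.27 and 7.22 FPKM, opposite in sign to OXT. CRH, the stress hormone of the paraventricular nucleus, was at 2.81 and 3.03 FPKM. NOS1, the neuronal nitric oxide synthase, was at 2.39 and 1.62 FPKM. CARTPT, at 115 and 70.2 FPKM, had the largest difference of this list.

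Over these lists together, from the specification factors to the co-transmitters, 44 genes were tested, 23 higher in high pigs and 21 in low pigs, with a median difference of 0.01. None had bounds that separated the groups or a ratio of at least 2, beside 0.458% and 3.76% of all tested rows. With 44 genes against such shares, finding no call says little. The difference exceeded that of AVP in CARTPT and CACNA1A, and that of OXT in CARTPT alone. Genes of the suprachiasmatic clock, where vasopressin is an output, had a median of -0.01 (0.09 under median-of-ratios scaling) over 11 tested rows, 5 higher in high pigs. In that list BMAL1 and ARNTL are names of 1 gene with 2 rows, and VIP was at 2.20 and 4.22 FPKM with lower bounds at 0.

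Markers of several cell types other than neurons had higher values in low pigs, opposite in sign to AVP and OXT, in a table where 67.7% of tested rows did so too. Of the 9 fibroblast and mural markers all were higher in low pigs, 6 with bounds that did not overlap, and the FPKM summed over them was 103 in high pigs and 255 in low pigs. All 4 tested erythroid markers (summed over the 6 listed, 161 and 393 FPKM) and all 5 tested oligodendrocyte markers (2590 and 3922 FPKM) were higher in low pigs, as were all 6 tested microglial markers (248 and 353 FPKM). Bounds did not overlap in 2 of the erythroid markers and in 0 of the oligodendrocyte, microglial, astrocyte, choroid plexus and anterior pituitary markers. Over all tested rows, 0.432% had such bounds with the higher value in low pigs, so a count of 0 in lists this short says little. A ratio of at least 2 toward low pigs was reached by 7 of 9 fibroblast and mural, 4 of 4 erythroid and 5 of 6 anterior pituitary markers. It was reached by 1 of 5 choroid plexus markers and by 0 oligodendrocyte, microglial and astrocyte markers, beside 2.44% of all tested rows. All 6 tested anterior pituitary markers had the higher value in low pigs, and the list summed to 546 and 1096 FPKM over 11 genes, led by prolactin. The median difference of this list was -1.08 over the 6 tested genes and -0.39 over all 11, without the filter. Of the tested astrocyte markers 5 of 6 (median -0.19, and -0.01 after quantile normalization) and of the choroid plexus markers 4 of 5 (median -0.48) were higher in low pigs, counts not far from the share over all tested rows. None of these lists had a member listed at 0 in both groups, while GFAP of the astrocyte list had no estimate.

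Markers of neurons were mixed, while most tested hypothalamic transcription factors were higher in high pigs, the direction of AVP and OXT. Of 8 tested neuron markers 5 were higher in high pigs (median 0.04, and 0.15 and 0.26 under the 2 scalings, summed 1114 and 1165 FPKM). Of 6 tested hypothalamic transcription factors 5 were higher in high pigs, beside 32.3% of all tested rows. None had bounds that separated the groups. Their median was 0.35, or 0.13 over all 10 with an estimate, whose sums were 22.0 and 16.4 FPKM. Pituicytes are the glia around the vasopressin and oxytocin endings in the posterior pituitary. Their markers were mixed too, with a median of -0.20 over 5 tested genes. Of these 3 were higher in low pigs, beside 67.7% of all tested rows. The FPKM summed over 7 was 236 in high pigs and 332 in low pigs, and VIM, which other glia also express, made up most of that sum. Some listed genes are expressed in more than 1 of these cell types. The part of cell composition in the AVP and OXT values was not tested, and in bulk tissue more cells of a type and more RNA per cell cannot be told apart.

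**Figure D4:**
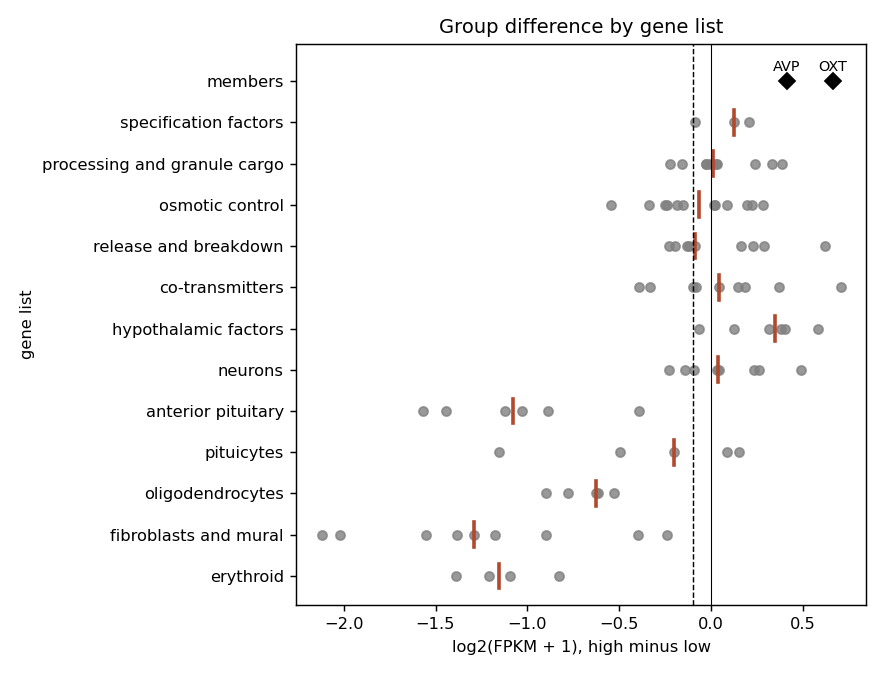
Log2(FPKM + 1) of high minus low pigs for AVP and OXT (diamonds) and the tested members of 12 gene lists (grey points, red bar at each list's median), with the solid line at 0 and the dashed line at the median of all tested rows, -0.10. AVP at 0.41 and OXT at 0.66 lie to the right of the medians of the processing (0.01), osmotic (-0.07) and co-transmitter (0.04) lists. The median of the hypothalamic factors (0.35) is the closest to AVP, and some members of the lists lie to the right of AVP. The medians of the fibroblast and mural, erythroid and anterior pituitary genes lie far to the left.

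AVP and OXT are neighbours on chromosome 17. On build Sscrofa10.2, AVP (ENSSSCG00000007163) lies at 36950915 to 36952826 and OXT (ENSSSCG00000007164) at 36975726 to 36976589, counted from 1. They are separated by 22899 bases that hold no other row, and no row overlaps either gene. On the newer assembly Sscrofa11.1, RefSeq places the long non-coding RNA LOC110257451 across part of AVP and LOC100526084 between the genes. These have no row in the table, and the sources used here do not say whether fragments were counted by strand, so fragments from an overlapping transcript cannot be told apart from AVP.

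The genes around the pair did not share its difference. Of the 6 rows on each side, 10 were tested, 2 of them higher in high pigs and 8 in low pigs. Over all tested rows 67.7% were higher in low pigs. The median of the 10 rows was -0.10, as against -0.12 over all 416 tested rows of the chromosome. Over the listed neighbours alone, 9 of them tested, the median of -0.10 turned to 0.03 after quantile normalization. Next to AVP, UBOX5 was at 3.40 and 3.32 FPKM in high and low pigs, and next to OXT, MRPS26, a mitochondrial ribosomal protein, was at 34.4 and 35.3 FPKM. PTPRA, a phosphatase, was at 52.7 and 57.9 FPKM. The outermost tested row, CPXM1, was at 0.697 FPKM (0.286 to 1.11) and 3.53 FPKM (1.56 to 5.50), a lower value in high pigs with bounds that did not overlap. Such bounds in that direction were found in 0.432% of all tested rows.

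**Figure D5:**
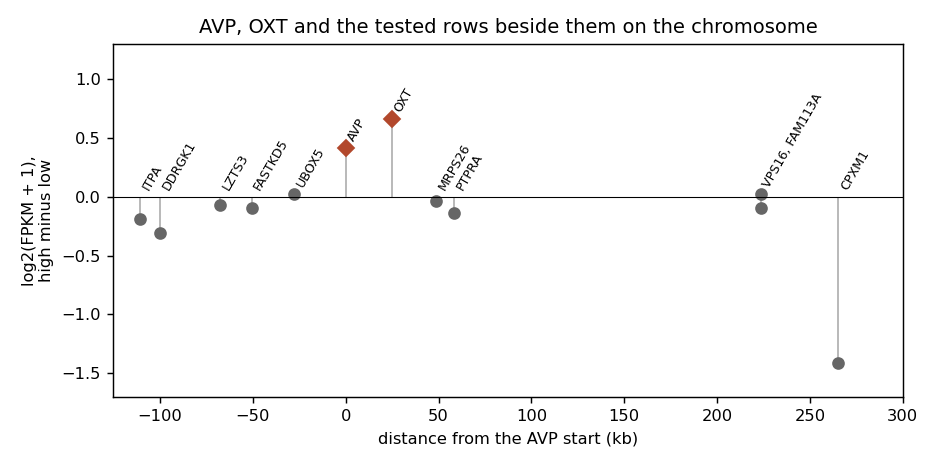
Log2(FPKM + 1) of high minus low pigs for AVP and OXT (diamonds) and the 10 other tested rows of the window (points), against the distance of each gene's start from the AVP start in kb. AVP (0.41) and OXT (0.66) are the high points, MRPS26 and UBOX5 beside them are near 0, and CPXM1 lies at -1.42.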

How the data were processed

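RNA from the hypothalamus of 5 pigs per group was sequenced as paired-end Illumina libraries, per the labels' protocols. Among the tools in the submitters' processing notes are TopHat2 2.0.5 and Cufflinks 2.0.2, and the build is Sscrofa10.2, with no account of each step in the labels used here. The authors deposited 1 FPKM per gene for each group, with confidence bounds, per the file headers, and how animals were combined and the confidence level of the bounds are not given in the sources used here. With Python 3.11.15 and pandas 2.3.3, 58 rows without an estimate in a group were left out, rows averaging 1 FPKM or more were kept for comparisons (15281), and differences were taken as log2(FPKM + 1), high minus low. Of 25009 rows, 16804 carried a name and 963 were named from a reference table. For lists, 1 row per gene name was used, on a placed chromosome where possible and of highest mean. Starts in the file count from 0 and were raised by 1. With 1 value per group no test was made. The functions were tested on simulated data. AVP, OXT and the gene lists were chosen with earlier results of these data known. Genes of the lists on the peptides' own pathway could all be named, while of the other lists only members past a call rule or ranked next to AVP or OXT were to be named, beside the 5 rows nearest to each member, of which 1 near AVP is not reported here. SNCG, WSB1, GFAP, VIM, VIP, SST, BMAL1 with its other name ARNTL, UBOX5, MRPS26 and PTPRA fall outside it and were picked once their values were known. Alternatives were pseudocounts of 0.1 and 0.5, median-of-ratios scaling, quantile normalization, other filters on low values and 1 row per gene name.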

Additional observations from a re-analysis of the deposited data

How the results depend on the processing

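AVP and OXT kept the higher value in high pigs, with overlapping bounds, under both other pseudocounts, median-of-ratios scaling and quantile normalization. Their log2 differences ran from 0.41 to 0.74 for AVP and from 0.66 to 0.83 for OXT, the highest after quantile normalization. Both scalings also shifted the median over tested rows, as they are built to do, from -0.10 as deposited to 0.00056 by median-of-ratios and -0.0023 by quantiles. The AVP to OXT ratio after quantile normalization was 9.08 in high pigs and 9.83 in low pigs. With 1 row per gene name, where fewer rows are ranked, AVP ranked 56th in high pigs and 125th in low pigs. Rows with a ratio of at least 2 numbered 575, and 2893 with no filter, 287 among rows averaging 5 FPKM or more and 278 with 1 row per gene name, where the rows tested differ. Rows with bounds that did not overlap numbered 47 to 72 under the alternatives, against 70. Of 18 lists with a tested member, 6 changed the sign of their median under at least 1 of 6 settings, all with medians close to 0. The comparison of interval widths with short genes was chosen after seeing the data. No paired analysis was possible because values of single animals were not analysed here, and none could be left out either. Without counts, the limit that depth sets is unknown.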
